A study of Mus musculus with 8 samples.

Results

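Assay for transposase-accessible chromatin with sequencing (ATAC-seq) marks open DNA, and the open regions described here come from peak lists of sorted cells of a mouse liver cancer model. A region was a member when it overlapped a peak in both EpCAM-high lists and in the Tumor Sox9 list, and no peak in either Prog-like list. The peaks of all 5 deposited lists were first merged into 138775 union regions wherever they overlapped by at least 1 bp, and 6389 of these regions, 4.6%, were members. The members were chosen by the presence and absence of peaks, so the peak values given below describe them and test nothing.

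The cells came from livers and macroscopic lesions of mice in which floxed genes of the Rb family had been deleted by Cre. The Rb family proteins restrain E2F transcription factors and so the entry into the cell cycle. Every fraction shared the triple knockout and the YFP reporter, and YFP-positive cells were sorted. The labels divide 8 samples into EpCAM-high CK19 (2 samples), EpCAM-high Sox9 (1), Thy1-positive CK19 (2), Thy1-positive Sox9 (1) and EpCAM-negative cells (2). EpCAM is a surface protein of epithelial cells, and Thy1 is a surface protein of several non-epithelial cells. The labels do not say whether CK19 and Sox9 name the promoter that drives Cre, and they give no age, strain or number of animals. There is no sample labelled Prog-like or Tumor, so these names are those of the deposited lists, and how each was tied to the sorted fractions is not given in the sources used here. Each condition has 1 list, pooling is not stated and read depth is unknown. No difference between conditions could therefore be tested against replicates, and the 95% intervals below are exact binomial (Clopper-Pearson) intervals that cover counting error only. In bulk chromatin, fewer cells of a type and fewer open copies per cell cannot be told apart.

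Liver epithelium holds hepatocytes, which make plasma proteins and metabolise nutrients, and cholangiocytes, which line the bile ducts. Both arise from foregut endoderm under shared transcription factors, among them the HNF1 proteins, FOXA proteins and Onecut proteins. HNF1 proteins bind DNA as dimers at a site whose conserved core reads GTTAAT, then any base, then ATT, and they are known for activating promoters of hepatocyte and of renal and biliary tubule genes.

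The start windows of 354 protein-coding genes overlapped a member, and of the 17 motifs searched the HNF1 core had the highest ratio of its share in them to its share in all windows. The motif strings spanned 6 to 10 bases, and the HNF1 core was the longest. A string that is rare in all windows has more room for a high ratio, and the ranking was not adjusted for this. A start window is the stretch from 250 bases before to 50 after an annotated start, taken from RefSeq (GRCm38.p6). These 5 windows are printed 5′ to 3′ because each lay under a member and each belongs to a gene named below. Other windows met the same conditions, and among them those of Pard3, Lamb3, Krt18, Bche, Gimd1 and Slc9b2 held no HNF1 core and are not printed. The printed windows therefore do not show how common the core was, which was 21 of 401 member windows. Capitals mark exact matches to the HNF1 core, which were found in the first 3 and not in Alb or Wwc1. The Alb window holds gttaatgatc, which differs from the core at its last base and was not counted.
Pkhd1, chr1:20618008-20618307, minus strand: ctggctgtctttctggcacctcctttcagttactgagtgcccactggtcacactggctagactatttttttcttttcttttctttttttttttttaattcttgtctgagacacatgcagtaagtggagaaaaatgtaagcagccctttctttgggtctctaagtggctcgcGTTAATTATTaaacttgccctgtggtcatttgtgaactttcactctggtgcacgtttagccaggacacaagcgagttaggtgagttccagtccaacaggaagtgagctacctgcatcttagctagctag
Nr5a2, chr1:136960399-136960698, minus strand: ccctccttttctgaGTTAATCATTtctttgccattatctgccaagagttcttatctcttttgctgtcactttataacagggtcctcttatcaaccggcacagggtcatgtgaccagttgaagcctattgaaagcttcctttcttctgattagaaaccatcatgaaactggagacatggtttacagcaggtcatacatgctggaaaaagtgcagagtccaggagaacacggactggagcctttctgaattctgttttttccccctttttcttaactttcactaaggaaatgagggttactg
Gpr39, chr1:125676746-125677045, plus strand: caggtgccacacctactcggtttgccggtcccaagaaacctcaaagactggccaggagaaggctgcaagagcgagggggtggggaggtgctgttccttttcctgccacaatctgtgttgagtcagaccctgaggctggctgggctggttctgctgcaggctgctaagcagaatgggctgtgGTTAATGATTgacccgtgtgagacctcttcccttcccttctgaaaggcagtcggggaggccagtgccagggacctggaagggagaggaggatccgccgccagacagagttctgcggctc
Alb, chr5:90460620-90460919, plus strand: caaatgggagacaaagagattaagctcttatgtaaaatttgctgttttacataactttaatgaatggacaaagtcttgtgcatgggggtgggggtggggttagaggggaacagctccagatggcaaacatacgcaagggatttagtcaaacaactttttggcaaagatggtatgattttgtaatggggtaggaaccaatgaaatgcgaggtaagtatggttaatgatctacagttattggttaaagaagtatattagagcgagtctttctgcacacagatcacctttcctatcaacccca
Wwc1, chr11:35980478-35980777, minus strand: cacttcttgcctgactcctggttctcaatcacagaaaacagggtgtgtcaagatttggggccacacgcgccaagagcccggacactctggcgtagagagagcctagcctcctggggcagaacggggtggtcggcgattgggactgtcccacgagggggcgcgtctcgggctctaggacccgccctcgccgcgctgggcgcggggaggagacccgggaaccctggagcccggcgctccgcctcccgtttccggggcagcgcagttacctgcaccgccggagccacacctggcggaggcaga
Pkhd1 encodes fibrocystin, a protein of biliary and renal cilia whose human counterpart is mutated in recessive polycystic kidney and liver disease, and its HNF1 core began at position −79, counted from the start with negative positions before it. Nr5a2 (LRH-1), a nuclear receptor of bile acid metabolism, had its core at −236, and Gpr39, a zinc-sensing receptor, had it at −69. Alb, which encodes serum albumin, held a CEBP match (TTGCNNAA) at −94. Wwc1 encodes KIBRA, an upstream component of Hippo signalling, and its window was the richest in G and C of the 5 at 68.0%, with 27 CpG, against 2 CpG at Nr5a2.

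A further 8 sites are shown because they lie at genes of secreted plasma proteins and of liver metabolism. Each is printed on the strand on which the core reads GTTAAT first, with 10 flanking bases on each side.
Afm, HNF1 match at chr5:90518811-90518820: ttttcccctaGTTAATAATTacctagaaat
C4bp, HNF1 match at chr1:130661673-130661682: gctctagtctGTTAATCATTcaccgggaca
F13b, HNF1 match at chr1:139501652-139501661: gacaaaacaaGTTAATAATTacaatgtctg
Gc, HNF1 match at chr5:89457941-89457950: cagtgacaaaGTTAATGATTaaaacctccc
Hgfac, HNF1 match at chr5:35041501-35041510: gggtggcaggGTTAATCATTatcatgtagc
Mia2, HNF1 match at chr12:59095558-59095567: taaaacccctGTTAATTATTaagcccttcg
Pcbd1, HNF1 match at chr10:61089307-61089316: gaggacccatGTTAATTATTacccgcggcc
Sult1d1, HNF1 match at chr5:87569076-87569085: ccactgatcaGTTAATAATTgactaagagt
Afm encodes afamin and Gc the vitamin D binding protein, both plasma carriers made by hepatocytes. C4bp encodes a complement regulator, F13b a subunit of a coagulation factor, and Hgfac the protease that activates hepatocyte growth factor. Mia2 encodes a protein of endoplasmic reticulum export, Sult1d1 a sulfotransferase, and Pcbd1 a protein that also serves as the dimerization cofactor of HNF1.

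The members made up 16.2% of the Tumor Sox9 peaks (6433 of 39644), 11.4% of the EpCAM-high CK19 peaks (6481 of 56932) and 11.5% of the EpCAM-high Sox9 peaks (6848 of 59454). Among the larger classes of union regions were those with a peak in both Prog-like lists alone (35772), in all 5 lists (13529) and in both EpCAM-high lists alone (12938). Members were 697 bp wide at the median, with quartiles of 540 and 910 bp, between the 489 bp of regions in both EpCAM-high lists alone and the 1124 bp of regions in all 5 lists. A region merged from more peaks tends to be wider by construction. The peak strengths are the authors' values, as −log10 q from the peak caller. The median over members was 23.3 in EpCAM-high CK19, 20.2 in EpCAM-high Sox9 and 11.1 in Tumor Sox9. The Tumor peak was the weakest of the 3 in 4338 members (67.9%). At regions of all 5 lists the medians were 38.2, 32.4 and 16.4 in the same order, so lower Tumor values were not particular to members. With read depth unknown, it is also unknown how far these values can be compared between lists.

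**Figure D1:**
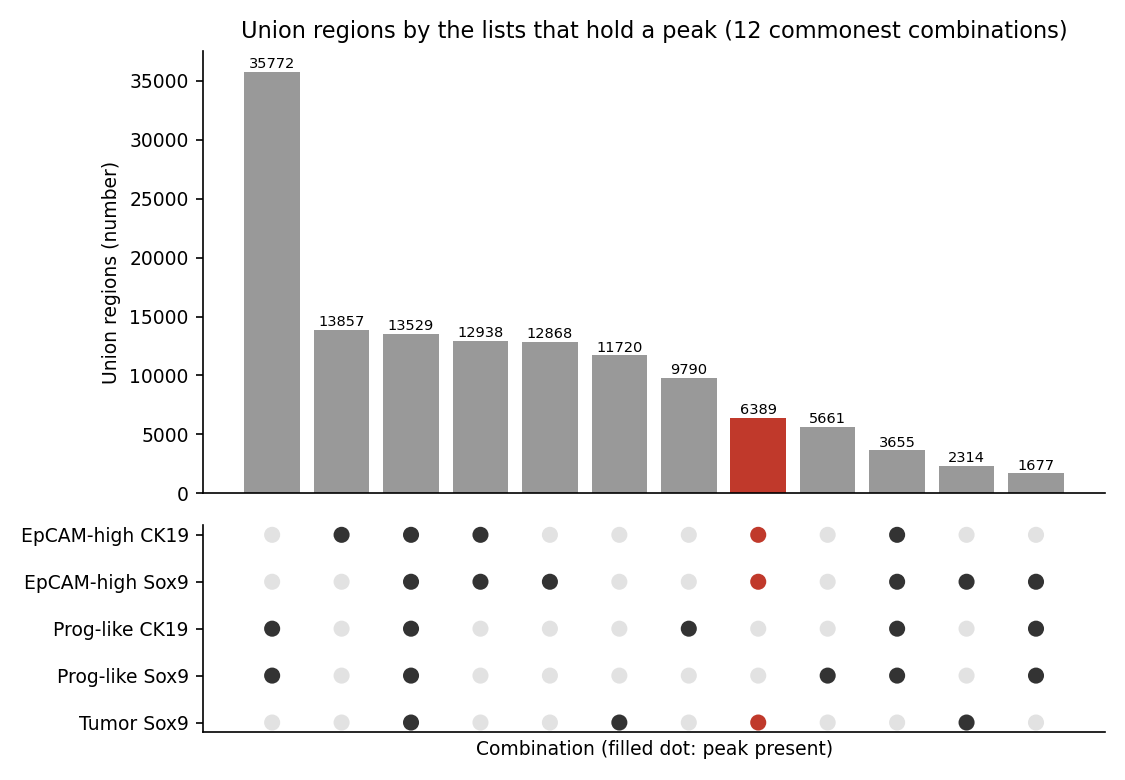
Number of union regions (vertical axis) for the 12 commonest combinations of the 5 lists, with filled dots marking the lists that hold a peak. The member combination, in red, holds 6389 regions, while the combination of both Prog-like lists alone holds 35772.

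The edge of the rule was narrow for some members. The weakest of a member's 3 peaks had a −log10 q of 1.33 at the lowest, 8.81 at the median and 66.8 at the highest, and 69 members had 1 of the 3 peaks under 2. Outside the rule, 14703 regions had peaks in the same 3 lists and also a Prog-like peak. In 39 of these the strongest Prog-like peak had a −log10 q under 2, and in 461 it was under 5. Among the members, 218 had a Prog-like peak within 500 bp. Where the peaks of each of the 3 lists had to cover at least 50% of a region, there were 4077 members.

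Most members lay away from gene ends, as did most union regions. A gene end, start or finish, of a protein-coding gene lay within 1000 bp of 599 members, 9.38% (95% interval 8.67 to 10.1). Another 2855 (44.7%) lay inside a gene body and 2934 (45.9%) between genes. Over all union regions the shares were close to these, with 11.9% at gene ends, 42.0% in gene bodies and 46.1% between genes. Exons and introns were not separated. Regions in all 5 lists lay at gene ends in 63.4% of cases (62.5 to 64.2), and regions in both EpCAM-high lists alone in 7.69% (7.23 to 8.16), so the members were close to the EpCAM-high regions without a Tumor peak and far from the regions open in every list. When every list was shortened to its 39644 strongest peaks, the share of members at gene ends was 16.0%. That setting drops weak peaks from both Prog-like and both EpCAM-high lists by construction and leaves the Tumor Sox9 list whole. The cause of the shift was not tested.

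Distances to the nearest annotated start placed the members near the union regions as a whole. The median was 43157 bp for members, 54897 bp for regions in both EpCAM-high lists alone and 378 bp for regions in all 5 lists, against 45363 bp over all union regions, counting the starts of 17492 genes with a start window. Of the members with such a distance, 6.28% lay under 1 kb from a start, 13.6% at 1 to 10 kb, 50.3% at 10 to 100 kb and 29.8% at over 100 kb. Start windows overlapped 356 members (5.80%, 5.22 to 6.41), against 4.25% of EpCAM-high-alone regions, 1.5% of regions in both Prog-like lists alone 56.8% of regions in all 5 lists and 8.13% of all union regions. In the 2164 members inside the body of exactly 1 gene with a known strand, 5 equal stretches of the gene from its 5′ end held 21.7, 23.3, 20.8, 19.5 and 14.6% of members. The first stretch held 29.1% of the gene-body regions of all 5 lists.

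Members clustered along the genome, and their clusters were small. A union region directly beside a member was itself a member in 11.8% of 12777 neighbour positions, while members were 4.6% of all union regions. Regions in both EpCAM-high lists alone were 14.5% of neighbours and 9.32% of union regions. Regions with any Prog-like peak were 39.8% of neighbours and 56.0% of union regions. In all, 1384 members (21.7%, 20.7 to 22.7) had a member beside them, against 37.1% of EpCAM-high-alone regions and 64.1% of Prog-like-alone regions for their own kinds, which are more numerous.

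Chained at gaps of up to 12.5 kb, 4632 members (72.5%) stood alone, 603 pairs and 125 groups of 3 were found, and 165 clusters of 3 or more held 551 members (8.62%). Clusters of that size held 14.4% of EpCAM-high-alone regions and 45.9% of Prog-like-alone regions. The median gap between neighbouring members was 100.9 kb. The largest clusters had 6 members, and there were 4 of them.

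At Krt8 and Krt18, the paired keratins of simple epithelia, 6 of the 7 union regions in 24.6 kb were members and none had a Prog-like peak (chr15:102004238-102028866, mm10). The member at the Krt8 start (chr15:102004238-102004752) had −log10 q values of 11.8 in EpCAM-high CK19, 18.9 in EpCAM-high Sox9 and 11.03 in Tumor Sox9. The member at the Krt18 start (chr15:102028075-102028866) had 8.67, 13.5 and 3.07 in the same order. Both keratin starts were thus open in the 3 lists, with a weaker Tumor peak at the Krt18 start than at the Krt8 start. The lowest Tumor value of the cluster, 2.40, was at another member beside Krt8 (chr15:102005191-102005868).

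At Nr5a2, 6 members lay in 45.8 kb from the promoter inward, among 11 union regions of which 3 were in both EpCAM-high lists alone and none had a Prog-like peak (chr1:136915264-136961066). The member over the start had −log10 q values of 42.4, 21.8 and 10.9 in EpCAM-high CK19, EpCAM-high Sox9 and Tumor Sox9. The gene with its 10 kb flanks held 8 members of 22 union regions. Their Tumor values ran from 2.00 to 17.5, and the highest was 100628 bp into the gene rather than at its start.

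The other clusters of 6 were at Ugt2b35, a glucuronosyltransferase gene of the liver, where all 6 union regions in 36.7 kb were members (chr5:86994395-87031102), and at Sorbs2, an adaptor of the actin cytoskeleton, with 6 of 9 in 31.0 kb (chr8:45607030-45638071). Clusters of 5 lay in Rgs8, a regulator of G protein signalling, where they were 5 of 5 regions, and 112470 bp from Inhbb, which encodes an activin subunit, where they were 5 of 6. The last clusters named by the rule lay 14104 bp from Cyb5a, encoding cytochrome b5, and 37010 bp from Igsf3, with 5 members of 7 regions each and 1 region with a Prog-like peak each.

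By density, Slc2a2 stood first among genes with at least 5 members. It encodes GLUT2, the glucose transporter of hepatocytes, and 7 of the 10 union regions in its locus were members, or 13.9 per 100 kb. Its strongest member (chr3:28721374-28722815), 24191 bp inside the gene, had −log10 q values of 59.6 in EpCAM-high CK19, 79.7 in EpCAM-high Sox9 and 20.8 in Tumor Sox9. The other 6 had Tumor values from 4.34 to 15.6. A single Prog-like region lay in the locus, and it was no member.

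Next in density were Tekt5 with 8.70 members per 100 kb, Rgs8 with 7.73, Gm44812 with 6.26, Nr5a2 with 5.80, Pawr with 4.89, Col18a1 with 4.47 and Plekha6 with 4.34. Pawr encodes a regulator of apoptosis and Col18a1 a basement membrane collagen. By number, long genes led. Arhgap26, a GTPase activating protein, had 14 members in its locus, Macrod2 12, the phosphodiesterase gene Pde4d 11 and the receptor phosphatase gene Ptprg 11. Dab1 had 9, Etl4, Nr5a2, Ppp2r2b and Ror1 had 8 each, and Arhgap24, Elmo1 and Fggy had 7 each. Nr5a2, at 118 kb, was the shortest of the 12, and the next, Ror1, spans 349 kb.

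A locus here is the gene body with 10 kb on each side. Of 21887 protein-coding genes, 3159 (14.4%) had a member in the locus, and 623 (2.85%) had one within 1000 bp of a gene end. One member was the count in 2217 of these loci, 2 in 586 and 3 in 190. With 50 kb flanks 6316 genes had a member, as a wider window must give. Taking each member's nearest protein-coding gene, 3597 genes were nearest to at least 1 member and 2251 to exactly 1, while 196 were nearest to 5 or more and 19 to 10 or more. The highest counts were at Adgrl2, an adhesion G protein-coupled receptor, with 17, at Arhgap26 and Pde4d with 14, at Usp25 and Zfp608 with 13, and at Macrod2 and Nr5a2 with 12. The 3013 members outside gene bodies lay 33141 bp from the nearest gene at the median.

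Genes of 12 lists were then examined against the 14.4% of all protein-coding genes. The lists were chosen with results of these data known, and longer loci have more room for a member, so their shares are descriptions. Regions in both EpCAM-high lists alone, which are more numerous than members, lay in 4877 of the 21887 loci. They lay in 21 of 26 biliary and progenitor, 22 of 30 epithelial junction and polarity and 12 of 20 foregut and hepatic factor loci. TEAD and YAP loci held them in 13 of 18 cases, Wnt loci in 14 of 20 and Notch loci in 8 of 16. Hepatocyte loci held them in 6 of 30. Apart from the hepatocyte list, high shares at these lists were thus not particular to members. Biliary and progenitor genes had a member in 18 of 26 loci (69.2%, 48.2 to 85.7), at 16.9 members per Mb of locus against 3.21 over all genes. Bicc1, an RNA-binding protein whose loss gives cystic kidneys in mice, had 5 members, Krt18 3 and Pkhd1 3. The list further included Aqp1, Ehf, Krt23, Krt8 and the osteopontin gene Spp1 with 2 each. Sox9, a transcription factor of bile duct cells, had 1, which lay 118 bp from the gene.

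At Bicc1 the −log10 q values of the 5 members ran from 12.6 to 38.3 in EpCAM-high CK19, from 11.5 to 34.6 in EpCAM-high Sox9 and from 6.79 to 23.5 in Tumor Sox9. The member at its upper-coordinate end (chr10:71158554-71160163) had 17.2, 34.6 and 17.4 in the same order. The Tumor and EpCAM-high CK19 values were both highest at another member (chr10:71058361-71059308), inside the gene. The EpCAM-high Sox9 value was highest at the end member.

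Several defining epithelial genes had no member in the locus. Epcam itself, Krt19 and Krt7, keratins of bile ducts, and Grhl2, an epithelial transcription factor, had 0, and the nearest member was 532840, 372281, 365291 and 87103 bp away, respectively. Open regions were present there. Krt19 had 6 union regions of which 4 were in both EpCAM-high lists alone, Krt7 had 4 of which 2 were, and Grhl2 had 10 of which 5 were. Epcam had 4 regions, of which 1 was in both EpCAM-high lists alone, 1 in all 5 lists and 2 in both Prog-like lists alone. Members were thus found at the epithelial genes Krt8, Krt18 and Cdh1 but not at the sorting marker or at Krt19.

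Epithelial junction and polarity genes had a member in 14 of 30 loci (46.7%, 28.3 to 65.7). Ocln, the tight junction protein occludin, and Pard3, a polarity protein, had 3 each, and Lamb3, a laminin chain, and Pard6b had 2 each. Cdh1, which encodes E-cadherin, had 1 member of 12 regions (chr8:106619465-106620175), with −log10 q values of 23.1, 10.8 and 16.3 in EpCAM-high CK19, EpCAM-high Sox9 and Tumor Sox9. It lay inside the gene and not at its ends.

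Foregut and hepatic transcription factors had a member in 9 of 20 loci (45%, 23.1 to 68.5) and the highest density of the lists, 21.7 per Mb. Nr5a2 accounted for 8 of their 23 members, Onecut2 had 3, and Cdx2, an intestinal factor, and Foxa3 had 2 each. Gata4 and Prox1 also had 2 each, and Foxa1 and Hnf4a had 1 each. In 7 of the 9 genes a member lay at a gene end.

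Hepatocyte function genes had a member in 10 of 30 loci (33.3%, 17.3 to 52.8), at 11.6 per Mb. Cps1, the entry enzyme of the urea cycle, had 3, and Apob, the lipoprotein backbone, had 2. Alb had 1 (chr5:90460140-90460995), over the start window printed above, with −log10 q values of 26.9 in EpCAM-high CK19, 18.6 in EpCAM-high Sox9 and 12.9 in Tumor Sox9, and 6 within 50 kb. Cps1 showed a wider gap between lists, since its member outside the lower-coordinate end (chr1:67113285-67113919) had 75.2, 44.2 and 6.86. Arg1, Ass1, G6pc, Hpx, Pck1 and Ttr, genes of urea and glucose metabolism and of plasma carriers, had 1 each.

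Signalling lists came next. TEAD and YAP pathway genes had a member in 8 of 18 loci (44.4%, 21.5 to 69.2). Wwc1 had 6, and the transcription factors Tead1 and Tead4 had 3 each and Amotl2, an inhibitor of YAP, 2. The member over the Wwc1 start (chr11:35979535-35980913) had −log10 q values of 21.3, 27.6 and 18.6 in EpCAM-high CK19, EpCAM-high Sox9 and Tumor Sox9. In 3 of the 6 members of Wwc1 the Tumor value exceeded both EpCAM-high values.

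Wnt pathway genes had a member in 8 of 20 loci (40.0%, 19.1 to 63.9), led by the receptor genes Lrp6 with 4 and Lgr4 with 3, the transcription factor gene Tcf7l1 with 3 and the stem cell receptor Lgr5 with 2. Notch pathway genes had 6 of 16 (37.5%, 15.2 to 64.6). The receptor gene Notch2 had 2, and Notch1, the ligand gene Dll1 and the target Heyl had 1 each. Nrarp and Rbpj had 1 each as well. The lower bounds of these 3 signalling lists lay closer to the 14.4% of all genes than that of the biliary list.

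Lists for other cell types and for general functions had shares below the 14.4% of all genes, with intervals that included it. Mesenchymal and stellate genes had a member in 3 of 24 loci (12.5%, 2.66 to 32.4), namely Zeb2 with 3, Cdh2 with 2 and Twist2 with 1. E2F and cell cycle genes had 3 of 24 (12.5%), namely E2f1, Rrm1 and Rrm2 with 1 each, and none of these lay at a gene end. Endothelial genes had 1 of 15 (6.67%), Lyve1, and housekeeping genes 1 of 20 (5%), Ywhaz. Regions open in all 5 lists were found at 23 of the 24 cell cycle loci and 20 of the 20 housekeeping loci, and at 56.8% of all protein-coding loci.

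Macrophage and blood cell genes had a member in 1 of 30 loci (3.33%, 0.0844 to 17.2), while regions in both Prog-like lists alone were found in 25 of the 30 and in 44.7% of all protein-coding loci. The exception was Spi1, the gene of the myeloid factor PU.1, whose locus held 6 regions in both Prog-like lists alone and 1 member (chr2:91115081-91115646) inside the gene at its upper-coordinate end. That member had −log10 q values of 18.4 in EpCAM-high CK19, 16.4 in EpCAM-high Sox9 and 17.1 in Tumor Sox9. The next gene, Mybpc3, lay 2467 bp away. Ptprc, the pan-leukocyte gene CD45, had 0 members of 16 regions and 9 regions in both Prog-like lists alone, and Thy1 had no region in its locus in any list. With 50 kb flanks 8 of the 30 blood cell loci held a member, as did 6316 of the 21887 protein-coding genes, so the low count rests on the 10 kb window.

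**Figure D2:**
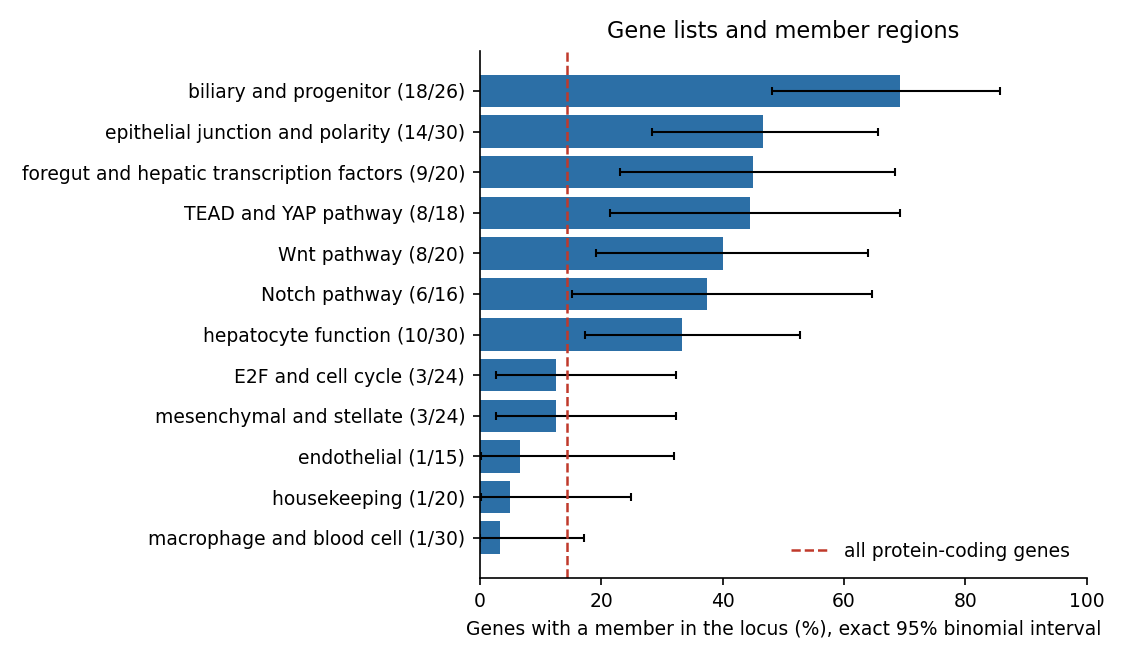
Share of genes in each of 12 lists with a member within 10 kb (horizontal axis, percent), with exact 95% binomial intervals, and the 14.4% of all protein-coding genes as a dashed line. Biliary and progenitor genes stand highest at 69.2% and macrophage and blood cell genes lowest at 3.33%.

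Of the 21263 start windows, 401 (1.89%) overlapped a member. Windows of 1 gene can overlap and share sequence, and the 401 came from 354 genes. Motifs were searched on both strands as exact strings. The HNF1 core was present in 21 of the 401 member windows, 5.24% (3.27 to 7.89), and in 79 of all 21263 windows, 0.372% (0.294 to 0.463). It was present in 4 of the 573 windows at EpCAM-high-alone regions (0.698%, 0.191 to 1.78), in 7 of 9398 at regions of all 5 lists (0.0745%) and in 0 of 547 at Prog-like-alone regions (interval up to 0.672%). When each list was shortened to its 39644 strongest peaks, the share was 2.38%, again 21 windows but of 884. Under the other alternatives tried it lay between 4.51 and 6.07%.

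The 21 genes, chosen after their values were seen, were Afm, Atp6v0a4, C4bp, Ccser2, Cfhr2, Cyp4a32, F13b, Gc, Glyctk, Golt1a, Gpr39, Hgfac, Mia2, Nr5a2, Pcbd1, Pkhd1, Plekha6, Smim6, Sult1d1, Gm13420 and 1810046K07Rik. Plasma protein genes (Afm, C4bp, Cfhr2, F13b, Gc and Hgfac) stood beside Pkhd1 and Atp6v0a4, a proton pump subunit of renal tubules. The cores lay from −236 to 20 with a median of −64, and 19 of the 21 lay within 150 bases upstream, against 39 of 59 matches in other windows. The 21 windows overlap regions that have peaks in both EpCAM-high lists and Tumor Sox9 by the rule, so the other 58 windows with an HNF1 core were counted alone. Of these, 25.9% (15.3 to 39.0) had a peak in EpCAM-high CK19, 31.0% (19.5 to 44.5) in EpCAM-high Sox9, 32.8% (21.0 to 46.3) in Tumor Sox9, 15.5% (7.35 to 27.4) in the CK19 Prog-like list and 10.3% (3.89 to 21.2) in the Sox9 Prog-like list. All 20862 windows outside members had a peak in 53.2, 53.0, 47.5, 54.0 and 51.4% of cases in the same order. Outside the members, windows with the core were less often under a peak than windows as a whole in each of the 5 lists. Leaving the members out removed 21 of the 79 windows with a core but 401 of all 21263. This lowers the EpCAM-high and Tumor shares by construction, so the overlap of the 5 intervals decides nothing. With the members included, the 79 windows had a peak in 45.6, 48.1, 50.6, 11.4 and 7.59% of cases in the same order. All 21263 had 54.0, 53.8, 48.4, 53.0 and 50.4%. The rule shapes these shares too.

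The other motifs had lower ratios, and their strings were shorter. The FOXA string TNTTTAC was found in 11.97% of member windows and 10.7% of all windows, and the ONECUT string ATTGAT in 7.48 and 6.54%. The HNF4 string CAAAGTCCA was found in 1.75% of member windows, 1.22% of EpCAM-high-alone windows and 0.451% of all windows. An E-box read by SNAI and ZEB repressors, CAGGTG, was found in 30.4% of member windows and 32.5% of EpCAM-high-alone windows, above the 19.7% of all windows. The AP-1 string TGANTCA was in 9.98% of member windows and 6.99% of all, and the TEAD string CATTCC in 16.7 and 13.6%.

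Strings of blood cell factors were more common in windows at Prog-like-alone regions than in all windows, and not in windows at members. The PU.1 string GAGGAAGT was in 1.25% of member windows 12.1% of Prog-like-alone windows and 3.13% of all windows, and the RUNX string TGTGGT in 11.5, 25.8 and 15.0%. The ETS string CCGGAAGT was in 0.998% of member windows, 9.98% of windows at regions of all 5 lists and 5.15% of all windows. The E2F string TTTCCCGC was in 0 of 401 member windows (interval up to 0.916%) and in 1.41% of all windows. Base composition differed too. The median window held 58.3% G and C and 11 CpG at members, 62.3% and 23 CpG at regions of all 5 lists, and 50.3% and 4 CpG at Prog-like-alone regions, and its part in the motif shares was not tested.

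**Figure D3:**
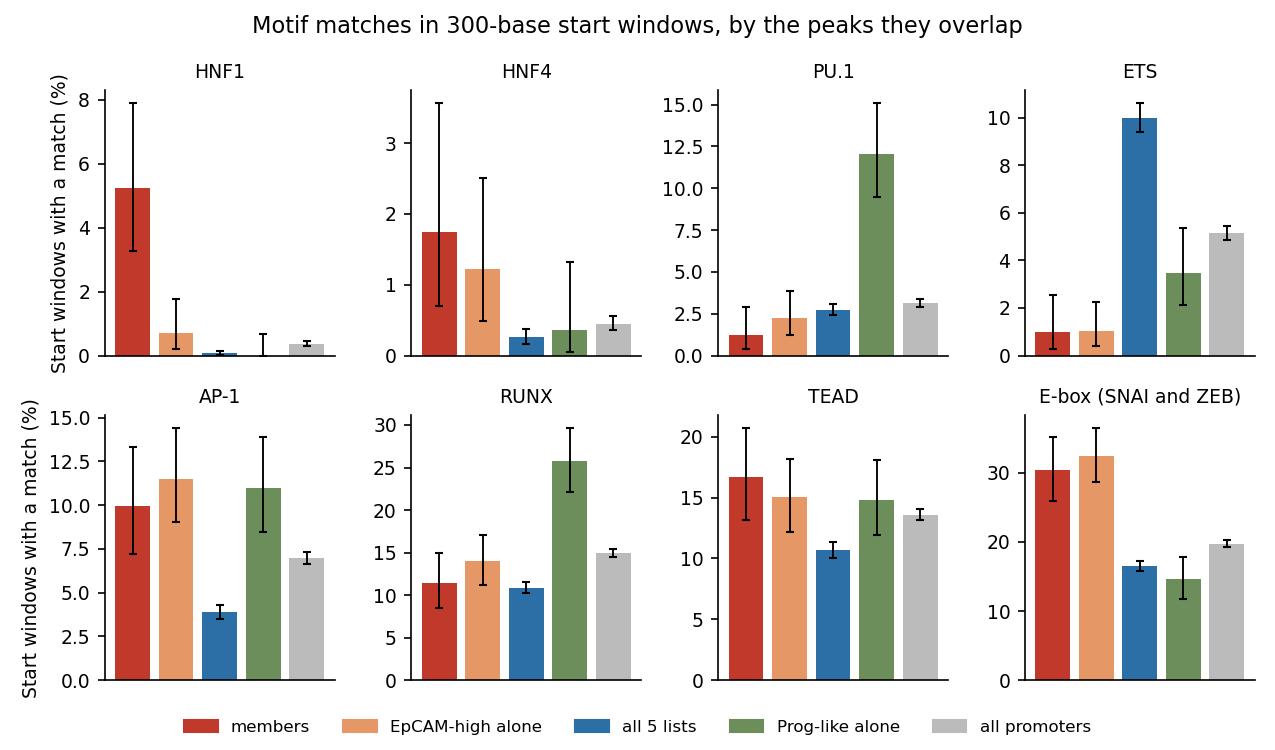
Share of 300-base start windows with a match to each of 8 motifs (vertical axes, percent, scaled separately), for windows at members, at regions of both EpCAM-high lists alone, of all 5 lists, of both Prog-like lists alone, and for all windows, with exact 95% binomial intervals. The HNF1 bar stands at 5.24% for members and at 0.372% for all windows, and the PU.1 bar is highest for the Prog-like-alone regions.

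Some genes had a member at one annotated start and a region open in all 5 lists at another. Of the 354 genes with a member at a window, 109 had more than 1 window, and 76 of these had no Prog-like peak at any of them. In 26 genes a member lay at one window and a region of all 5 lists at another, and in 25 of them the starts were over 1000 bp apart, with the member downstream in 13 and upstream in 12. The following examples were chosen after their values were seen. At Mia2 the member start lay 34157 bp upstream of the shared start, with −log10 q values of 109 in EpCAM-high CK19, 83.2 in EpCAM-high Sox9 and 21.9 in Tumor Sox9, and its window held the HNF1 core printed above. At Ccser2 the member start, also with an HNF1 core, lay 49229 bp downstream.

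Receptor and factor genes were among the 26. The growth hormone receptor gene Ghr had its member start 1510 bp downstream of the shared one, with values of 7.37, 7.90 and 9.80 in EpCAM-high CK19, EpCAM-high Sox9 and Tumor Sox9. The oestrogen receptor gene Esr1 had it 98169 bp downstream, Egf, the epidermal growth factor gene, 30236 bp upstream, and the transcription factor gene Foxp1 238217 bp upstream. Foxp1 had the highest Tumor value of the 26, 27.4, against 11.3 and 13.9 in the EpCAM-high lists.

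MicroRNA hairpins were matched by position in the RefSeq table. Of 1005 hairpins, 20 (1.99%) lay within 1000 bp of a member, and 10 of these overlapped one. These mature sequences are shown because their genes are known from epithelium or liver, and capitals mark the seed, bases 2 to 8.
miR-200b-3p: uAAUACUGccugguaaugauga
miR-429-3p: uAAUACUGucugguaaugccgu
miR-200a-3p: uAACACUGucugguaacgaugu
miR-148a-3p: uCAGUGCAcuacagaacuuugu
miR-802-5p: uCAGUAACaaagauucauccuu
miR-31-5p: aGGCAAGAugcuggcauagcug
The first 3 belong to the miR-200 family, which represses Zeb1 and Zeb2 and is known for holding cells in an epithelial state, and miR-200b-3p and miR-429-3p share the seed AAUACUG. The member over their cluster (chr4:156054099-156054993) overlapped the miR-200a hairpin and lay 111 bp from that of miR-429 and 687 bp from that of miR-200b. Its −log10 q values were 11.8 in EpCAM-high CK19, 7.24 in EpCAM-high Sox9 and 3.50 in Tumor Sox9.

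The miR-148a gene, whose product is abundant in liver, had a member 560 bp away with values of 15.5, 16.3 and 15.1 in the same order. The miR-802 hairpin was overlapped by a member with 4.25, 4.72 and 18.9, so that here the Tumor peak was the strongest. The miR-31 hairpin lay 37 bp from a member with 55.7, 23.6 and 27.4. A member also overlapped the hairpin of miR-375, a microRNA known from pancreatic islets, with 32.2, 28.9 and 14.4. Zeb2, a target of the miR-200 family, had 3 members among 36 regions and 16 regions in both Prog-like lists alone.

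The strongest members, ranked by the weakest of their 3 −log10 q values, mostly lay in gene bodies. The member in Rap1gds1 (chr3:139037010-139037482) had 216 in EpCAM-high CK19, 101.02 in EpCAM-high Sox9 and 63.9 in Tumor Sox9. Those in Rhbdd1, Vcan, Ston2 and Adck1 had a weakest value of 62.7, 59.9, 58.4 and 58.2, respectively. The member nearest to Qk, 126059 bp away, had 63.8, and the one nearest to Bambi, 322661 bp away, had 61.8. None of these 7 lay at a gene end, and none of the genes named for them is in the 12 gene lists examined here.

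At gene ends the strongest was at Bche, butyrylcholinesterase, an enzyme that the liver secretes, with 98.0, 50.2 and 48.1 in EpCAM-high CK19, EpCAM-high Sox9 and Tumor Sox9 (chr3:73707647-73708827). Gpr39, whose window is printed above, followed with 107, 99.3 and 42.7. The weakest values were 42.1 at Gimd1, 40.0 at Lrtm2, 37.4 at Amer2, 37.3 at Slc9b2, 37.2 at Odr4 and 36.6 at Cdx2.

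Finally, the members were set against all 19327 regions with a peak in both EpCAM-high lists and in no Prog-like list, of which they are the 33.1% (32.4 to 33.7) with a Tumor peak. The share followed peak strength. In 5 equal groups ordered by the lower of the 2 EpCAM-high −log10 q values it was 20.4, 26.2, 31.4, 39.0 and 48.4% from the weakest to the strongest. At gene ends it was 37.6% (35.2 to 40.0) and elsewhere 32.6% (32.0 to 33.3). In the same 5 groups the gene-end regions had 20.4, 27.9, 40.5, 52.6 and 54.1%.

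Around listed genes the share also varied. It was 60.9% at hepatocyte loci (14 of 23, 38.5 to 80.3), 44.2% at foregut and hepatic factor loci (23 of 52, 30.5 to 58.7), 43.0% at biliary loci (34 of 79, 31.9 to 54.7) and 30% at junction loci (21 of 70), against 35.5% over all protein-coding loci (34.7 to 36.3). With these counts the junction interval, 19.6 to 42.1, included the value of all loci, and so did the biliary interval and the foregut and hepatic factor interval. A region in the loci of more than 1 gene was counted once for each, and several regions of 1 gene were counted separately. Nr5a2, for example, held 8 of the 23. The intervals are therefore not those of independent, distinct regions. Peak strength was not matched between these lists, and its part was not tested. By chromosome the share ran from 26.7% on chromosome 9 (24.0 to 29.6) to 36.6% on chromosome 6 (33.8 to 39.4).

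**Figure D4:**
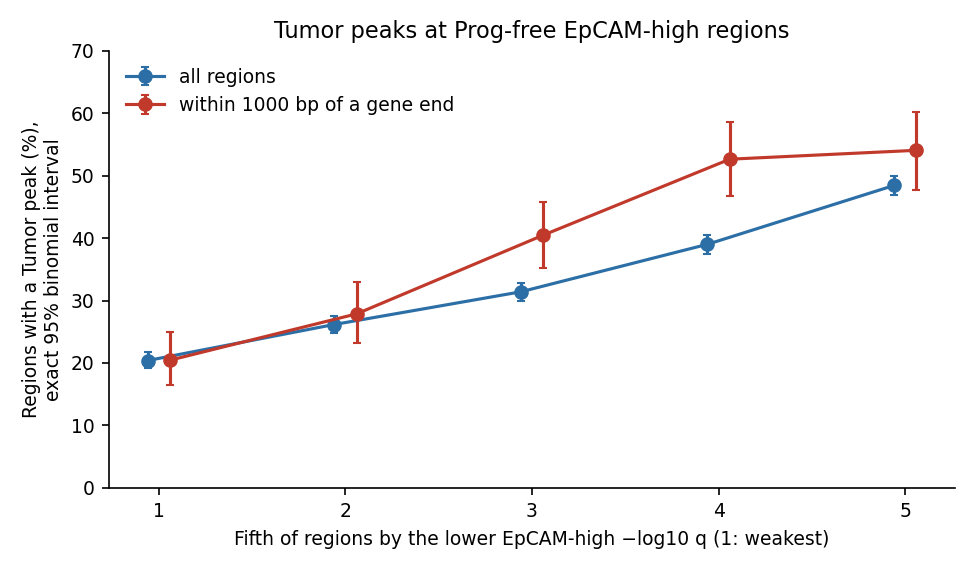
Share of EpCAM-high regions without a Prog-like peak that had a Tumor peak (vertical axis, percent, exact 95% binomial interval), in 5 equal groups of the lower EpCAM-high −log10 q (horizontal axis, 1 weakest). All regions run from 20.4 to 48.4%, and regions within 1000 bp of a gene end from 20.4 to 54.1%.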

How the data were processed

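ATAC-seq peak lists of sorted mouse liver cells were analysed as deposited. Per the submitters' processing notes, Bowtie 1.1.2, MACS2, HOMER and deepTools were used with mm10. The authors deposited for each peak a fold enrichment and −log10 p and q values, with no read counts, so depth is unknown. The lowest −log10 q of each list was 1.30 to 1.32, near a q of 0.05. Peaks of 5 lists were merged at 1 bp overlap with Python 3.11.15, numpy 2.4.6 and pandas 2.3.3. A region's value in a list is its strongest peak's −log10 q. Genes were RefSeq GRCm38.p6, the assembly of mm10. Start windows and hairpins came from the RefSeq tables, which held none on chromosome 18, so start distances and window shares leave out regions there. Binomial intervals used scipy 1.17.1. The 12 gene lists hold 273 genes.

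Genes were named by rule: up to 4 per list with the most members, the 12 with the most members, the 8 densest, the 8 largest clusters, the 8 strongest members overall and at gene ends, and 11 set genes. Others are said to be chosen afterwards or complete a list. A few genes that the rule names are not reported here. The members and lists were chosen with earlier results of these data known. Merging and counting were tested on simulated peaks. Alternatives were a −log10 q of 5 or more, equal list lengths, 50% cover, a 500 bp buffer, autosomes alone, and wider gene windows.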

Additional observations from a re-analysis of the deposited data

How the results depend on the processing

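No paired analysis was possible because each condition has 1 peak list and no result comes from a test between samples. Leaving out a replicate was not possible either. Requiring peaks to cover at least 50% of a region gave 4077 members, 15.8% of them beside another member and a Tumor share of 26.8%. A −log10 q of 5 or more gave 23.0% beside another member and a Tumor share of 31.7%. Lists of equal length (39644 peaks each) gave 16.0% of members at gene ends, 27.4% beside another member, a Tumor share of 42.4% and 2.38% of member start windows with an HNF1 core. These settings change which peaks count, and the cause of each shift was not tested further. A gene-end window of 2500 bp gave 13.7%, and flanks of 50 kb gave 6316 genes with a member and 8 macrophage and blood cell genes, as wider windows must. The number of biliary and progenitor genes with a member lay between 15 and 19 under every alternative run. Of the 6389 members, 4974 (77.9%) were still overlapped by a member at a −log10 q of 5 or more and 5056 (79.1%) at equal list lengths. The alternatives for the HNF1 share were chosen after seeing the data. Unknown depth and 1 list per condition limit every share to these lists.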
